A study of Mus musculus with 12 samples.

Results

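Conventional dendritic cells of type 1 (cDC1) and type 2 (cDC2) from the spleens of Flt3L KO mice, which lack FLT3 ligand, were compared on 2 arrays of each cell type. These 4 arrays were chosen by their titles from a series of 12, and the measured values played no part in the choice. The groups used here are Flt3L KO cDC1 and Flt3L KO cDC2, with Flt3 KO cDC1 and cDC2 (mice without the receptor FLT3) and WT cDC1 and cDC2 as the groups they are set against, each with 2 biological replicates. The cells were described as mature, came from mice at steady state, and were sorted from spleens digested with collagenase and DNase. The sort markers, the age, sex and strain of the mice, the alleles behind each knockout and any pooling of mice are not stated. P-values therefore measure the spread between these arrays.

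FLT3 is a receptor tyrosine kinase on dendritic cell progenitors and on conventional dendritic cells, and FLT3 ligand is the cytokine that binds it and drives their production. cDC1 depend on the transcription factors IRF8 and BATF3, take up dead cells and present their antigens on MHC class I, while cDC2 depend on IRF4, carry SIRPα and CD11b, and mainly prime CD4 T cells. Mice without the ligand still hold a small number of conventional dendritic cells, and the comparison asks how far the 2 cell types differ from each other there.

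Each probe set has 1 linear intensity on each array, taken as deposited. Median intensity was 59.6 to 61.8 on the 4 Flt3L KO arrays and 59 to 63 over all 12. The SD across genes of the log2 difference between replicates was 0.144 in Flt3L KO cDC1 and 0.154 in Flt3L KO cDC2. It was 0.131 to 0.154 in the other groups apart from WT cDC1, at 0.21, so the WT cDC1 arrays stood apart from each other most. In these bulk arrays, fewer cells of a type and less RNA per cell cannot be told apart. A gene was called when its adjusted p (limma, Benjamini-Hochberg over 14953 genes) was under 0.05, and "rose" or "fell" below means that a called gene was higher or lower in cDC1 than in cDC2.

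The targeted genes were read first. Flt3, the receptor gene, had intensities of 2426 and 2456 in Flt3L KO cDC1, against 1646 and 1637 in Flt3L KO cDC2, a 1.49-fold difference (log2 0.57, SE 0.07, adjusted p = 3.31e-05). It was 357 to 371 in Flt3 KO cDC1, 351 to 371 in Flt3 KO cDC2, 2265 to 2333 in WT cDC1 and 1742 to 1817 in WT cDC2, so both Flt3L KO groups carried Flt3 near the WT level. Flt3l, the ligand gene, had 119 and 129 in Flt3L KO cDC1 and 109 and 118 in Flt3L KO cDC2, against 113 and 114 in WT cDC1 and 145 and 149 in WT cDC2. Against WT of the same cell type, Flt3l was called lower in Flt3L KO cDC2 (log2 -0.37, adjusted p = 0.0267) and was not called in Flt3L KO cDC1 (0.13, adjusted p = 0.403). Whether the Flt3l probe set lies in the deleted part of the gene is not stated, so these values do not settle the Flt3L KO label.

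The 2 cell types stayed far apart without the ligand. Of the 14953 genes tested, 5209 (34.8%) were called, 2831 of them higher in cDC1 (18.9%) and 2378 lower (15.9%). More than 2-fold differences were called for 894 genes (5.98%), with 375 higher (2.51%) and 519 lower (3.47%). The largest differences were balanced, with 11 genes over 16-fold higher in cDC1 and 8 over 16-fold lower. Between 8- and 16-fold, 14 genes were higher and 36 lower. The plot of mean intensity in both cell types shows these genes on either side of the diagonal.

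**Figure D1:**
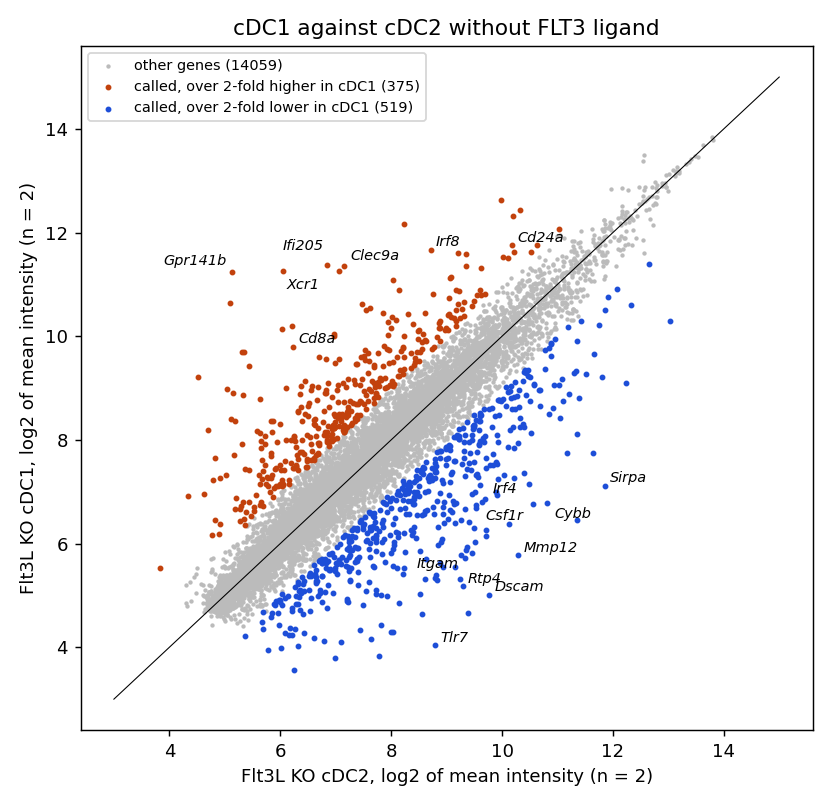
Mean intensity on a log2 scale in Flt3L KO cDC1 (vertical axis) and Flt3L KO cDC2 (horizontal axis), 1 point per gene, n = 2 arrays each. The 375 genes called over 2-fold higher in cDC1 (orange) lie above the diagonal of equal intensity and the 519 called over 2-fold lower (blue) lie below it, with Gpr141b and Xcr1 far above and Tlr7 and Sirpa far below.

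Most genes that define cDC1 were higher in the cDC1 arrays. Xcr1, the receptor for the chemokine XCL1 and a defining cDC1 marker, had 2421 and 2469 in Flt3L KO cDC1, against 62.0 and 70.6 in Flt3L KO cDC2, a 36.9-fold difference (log2 5.21, SE 0.11, adjusted p = 3.83e-12). Clec9a, which encodes a receptor for actin exposed on dead cells, had 2657 and 2593 in cDC1, against 123 and 160 in cDC2, 18.7-fold higher (adjusted p = 5.47e-11). For both genes every cDC1 array was far above every cDC2 array. Irf8, which encodes the transcription factor that cDC1 depend on, had 3368 and 3146 in cDC1, against 431 and 409 in cDC2 (7.76-fold, log2 2.96, SE 0.08, adjusted p = 3.49e-11). Cd8a, the α chain of the CD8 coreceptor carried by spleen cDC1, was 11.9-fold higher and Itgae, the integrin chain CD103, 11.7-fold higher. Cadm1, an adhesion molecule, was 8.89-fold higher.

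Not all factors of cDC1 development differed as much. Batf3, whose product pairs with JUN proteins and sustains IRF8, had 818 and 828 in Flt3L KO cDC1, against 625 and 635 in Flt3L KO cDC2, only 1.31-fold higher (adjusted p = 0.0015). Id2, an inhibitor of E proteins, was 2.10-fold higher, with 1244 and 1432 in cDC1 against 591 and 683 in cDC2. Nfil3, a factor of cDC1 progenitors, had 1669 and 1716 in cDC1 against 1967 and 1867 in cDC2 and did not pass (adjusted p = 0.074). Over the list of 29 tested cDC1 identity genes, 27 rose, with a median log2 difference of 2.96 beside 0.0077 over all genes tested. The other two, Nfil3 and Itgb8, did not pass. Tlr11 of this list had no probe set assigned to it alone and was not analysed here.

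The 12 largest rises ran from 15.9-fold to 69.1-fold. The largest was Gpr141b, an orphan G protein-coupled receptor gene, with 2256 and 2570 in Flt3L KO cDC1 against 31.8 and 38.2 in Flt3L KO cDC2. P3h2, a prolyl 3-hydroxylase gene, followed at 46.9-fold, with 1350 and 1851 in cDC1 against 28.8 and 39.5 in cDC2. Plpp1, a lipid phosphatase, rose 25.9-fold, though against a cDC2 signal (23.2 and 22.5) under the lower quartile of its arrays, and Ifi205, of the interferon-inducible PYHIN family, 24.2-fold. The 2 cDC2 arrays of Ifi205 read 150 and 81.0, so its fold is among the less precise. Its SE (0.20) comes from a variance shared by all 6 groups and is not the spread of these 2 arrays. Mab21l3 rose 20.9-fold, Hepacam2 20.3-fold, Rab7b, a GTPase of endosome traffic, 18.4-fold, and Pdia5, a protein disulfide isomerase, 17.4-fold. P2ry14, the receptor for UDP-glucose, rose 16.1-fold and Tlr3, the receptor for double-stranded RNA, 15.9-fold.

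The cDC2 genes stood as far on the other side. Sirpa, which encodes the CD47 receptor SIRPα, had 149 and 128 in Flt3L KO cDC1, against 3751 and 3626 in Flt3L KO cDC2, 26.6-fold lower in cDC1 (log2 -4.74, SE 0.09, adjusted p = 2.96e-12). Irf4, the transcription factor gene of cDC2, had 103 and 130 in cDC1, against 785 and 881 in cDC2 (7.17-fold lower, adjusted p = 1.39e-09). Itgam, the CD11b chain, had 56.8 and 60.8 in cDC1, against 686 and 624 in cDC2 (11.1-fold lower). In each of these 3 genes the groups did not overlap, as was true of 66.7% of all genes tested. Zeb2, a transcriptional repressor, fell 11-fold and Klf4, a zinc finger factor, 2.20-fold. Of 29 cDC2 identity genes, 28 fell (median log2 -2.57).

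The exception was Clec12a, a C-type lectin that binds uric acid crystals. It had 1081 and 1116 in Flt3L KO cDC1, against 324 and 393 in Flt3L KO cDC2, and rose 3.08-fold (adjusted p = 6.76e-08). The 12 largest falls ran from 15-fold to 29.9-fold. Tgm2, the crosslinking enzyme transglutaminase 2, led them with 82.8 and 91.7 in cDC1 against 2709 and 2503 in cDC2. Dscam, an immunoglobulin superfamily adhesion molecule, fell 27.1-fold, Tlr7, the receptor for single-stranded RNA, 27.0-fold, and Adgre4, an adhesion G protein-coupled receptor, 26.7-fold. Tlr7 in cDC1 (17.0 and 15.8) and Clec4a4 in cDC1 (14.2 and 14.5) lay under the lower quartile of their arrays (23.6 to 24.3), so their folds rest on dim values. Mmp12, macrophage elastase, fell 21.9-fold but its cDC2 arrays read 865 and 1647. Cybb, the catalytic subunit of the phagocyte NADPH oxidase, fell 17.7-fold with 152 and 67.9 in cDC1 against 1830 and 1776 in cDC2. Rtp4, an interferon-induced gene, fell 17.1-fold, Adgre1, which encodes F4/80, 15.2-fold, Clec4a1, a C-type lectin, 15.2-fold and S100a4, a calcium-binding protein gene, 15-fold.

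**Figure D2:**
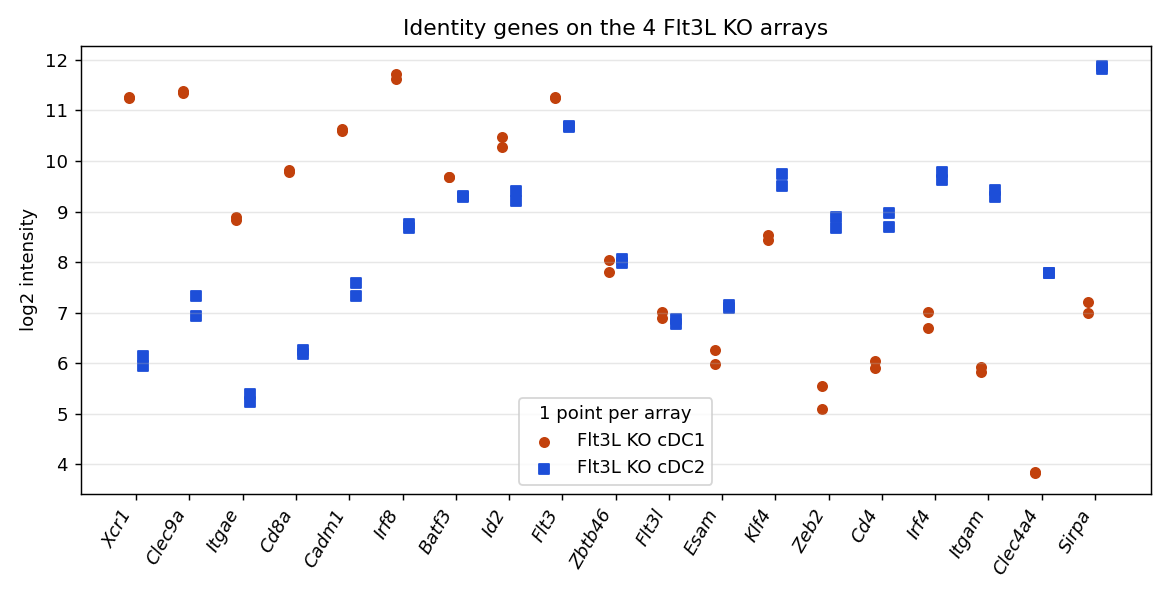
Intensity on a log2 scale of 19 identity genes on the 4 Flt3L KO arrays, 1 point per array, with cDC1 as orange circles left of cDC2 as blue squares. Xcr1, Clec9a, Itgae, Cd8a, Cadm1 and Irf8 are far higher in cDC1 and Irf4, Itgam, Clec4a4 and Sirpa far higher in cDC2, while Batf3 and Flt3 differ little and the points of Zbtb46 overlap.

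Promoter sequences are shown for 6 of these genes, 3 high in cDC1 and 3 high in cDC2, since the genes of IRF8 and IRF4, which bind DNA together with ETS or BATF partners, were themselves called in opposite directions. Each is the stretch of 250 bases that ends at the RefSeq gene start (GRCm38.p6), written 5′ to 3′ on the strand of the gene. Capitals mark matches, on either strand, to an ETS-IRF composite element (GGAA, any 2 bases, GAAA), to the core of the interferon-stimulated response element (GAAA, any 2 bases, GAAA) or to an AP-1 site (TGANTCA, which BATF and JUN also bind). Gpr141b, Cd8a, Cybb and Clec4a1 were picked after their matches were seen, and Xcr1 and Irf4 for their roles. Xcr1 lies at chr9:123862030-123862279 on the minus strand, Gpr141b at chr13:19732952-19733201 minus and Cd8a at chr6:71373177-71373426 plus. Irf4 lies at chr13:30748983-30749232 plus, Cybb at chrX:9469325-9469574 minus and Clec4a1 at chr6:122921598-122921847 plus.
Xcr1: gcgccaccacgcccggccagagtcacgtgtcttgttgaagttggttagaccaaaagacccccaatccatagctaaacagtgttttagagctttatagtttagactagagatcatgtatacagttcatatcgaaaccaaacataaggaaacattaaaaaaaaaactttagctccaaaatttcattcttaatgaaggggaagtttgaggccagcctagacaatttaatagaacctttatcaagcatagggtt
Gpr141b: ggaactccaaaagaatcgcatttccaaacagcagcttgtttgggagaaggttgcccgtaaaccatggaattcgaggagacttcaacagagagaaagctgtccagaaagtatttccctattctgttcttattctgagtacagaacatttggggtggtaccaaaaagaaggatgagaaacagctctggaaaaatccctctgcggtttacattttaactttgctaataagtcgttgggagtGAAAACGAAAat
Cd8a: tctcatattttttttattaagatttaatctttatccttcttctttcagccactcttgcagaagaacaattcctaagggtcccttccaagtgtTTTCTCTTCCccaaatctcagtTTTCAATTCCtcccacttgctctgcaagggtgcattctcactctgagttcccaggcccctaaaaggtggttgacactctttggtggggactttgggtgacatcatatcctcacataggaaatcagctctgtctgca
Irf4: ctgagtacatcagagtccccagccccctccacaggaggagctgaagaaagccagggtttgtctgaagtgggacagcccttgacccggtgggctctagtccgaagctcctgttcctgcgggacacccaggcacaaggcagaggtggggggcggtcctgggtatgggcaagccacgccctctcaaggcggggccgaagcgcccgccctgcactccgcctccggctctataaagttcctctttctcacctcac
Cybb: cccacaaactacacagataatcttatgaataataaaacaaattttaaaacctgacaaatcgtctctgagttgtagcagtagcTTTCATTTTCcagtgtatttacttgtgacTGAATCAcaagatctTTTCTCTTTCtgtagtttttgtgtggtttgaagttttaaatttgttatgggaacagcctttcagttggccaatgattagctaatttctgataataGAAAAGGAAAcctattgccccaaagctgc
Clec4a1: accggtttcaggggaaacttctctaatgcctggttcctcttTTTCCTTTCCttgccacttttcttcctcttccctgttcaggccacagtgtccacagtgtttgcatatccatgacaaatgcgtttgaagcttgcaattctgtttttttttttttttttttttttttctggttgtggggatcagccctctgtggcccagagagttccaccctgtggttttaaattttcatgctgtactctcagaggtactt

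Gpr141b, the gene with the largest rise, held the interferon response core starting 12 bases before its start. Cd8a held the ETS-IRF element on the reverse strand at 158 and 136 bases. Cybb held the interferon response core at 168, 124 and 29 bases and the AP-1 site at 139, and Clec4a1 held the ETS-IRF element at 209. The windows of Xcr1 and Irf4 held none of the 3. Over the 11808 tested genes with a promoter in the table, 2.61% held the interferon response core, 2.09% the ETS-IRF element and 4.76% the AP-1 site. Among the 306 promoters of genes called over 2-fold higher in Flt3L KO cDC1 2.94% held the interferon response core, 1.31% the ETS-IRF element and 6.54% the AP-1 site. Among the 397 of genes called over 2-fold lower these shares were 6.30% for the interferon response core, 3.02% for the ETS-IRF element and 7.05% for the AP-1 site. These matches are a description of letters in a short window, and binding was not measured.

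Among 46 transcription factors of dendritic cells, 8 rose and 21 fell (median log2 -0.18). Beside Irf8, Id2 and Batf3, the risers included Mycl, which cDC1 use for growth, with 699 and 659 in Flt3L KO cDC1 against 206 and 207 in Flt3L KO cDC2 (3.29-fold, adjusted p = 1.02e-08). Prdm1, the repressor BLIMP-1, fell 5.99-fold. Zbtb46, a factor common to both conventional types, did not separate them, with 225 and 263 in cDC1 against 266 and 255 in cDC2 (log2 -0.10, adjusted p = 0.615). The genes shared by conventional dendritic cells were present in both groups. MHC class II gene H2-Aa had 8926 and 9164 in cDC1 against 9276 and 9496 in cDC2 (adjusted p = 0.627). Of the 16 shared genes, 4 rose, 5 fell and 7 did not pass.

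Growth factor and cytokine receptors were lower in cDC1 more often than higher, with 15 of 34 lower and 5 higher (median log2 -0.14). Csf1r, the receptor for M-CSF and IL-34, had 117 and 100.5 in Flt3L KO cDC1, against 1581 and 1419 in Flt3L KO cDC2 (13.8-fold lower, log2 -3.79, SE 0.09). Il1r2, the decoy receptor for IL-1, was 6.67-fold lower, Il21r 5.03-fold lower and Csf3r, the G-CSF receptor, 4.44-fold lower. Csf2rb2, a β chain used with the IL-3 receptor, was 1.62-fold higher in cDC1. The GM-CSF receptor chain gene Csf2rb had 2569 and 2942 in cDC1, against 1974 and 2480 in cDC2, and did not pass (adjusted p = 0.0555).

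Genes that mark the subsets of cDC2 were read from 2 lists. Of 10 tested genes of the ESAM-high subset, which depends on Notch2, 6 fell and 1 rose. Esam itself had 76.6 and 63.6 in Flt3L KO cDC1, against 142 and 137 in Flt3L KO cDC2 (2.0-fold lower, adjusted p = 3.87e-06). Cd4 had 59.9 and 65.9 in cDC1, against 414 and 500 in cDC2 (7.24-fold lower). Clec4a4, whose product DCIR2 is seen by the antibody 33D1, fell 15.4-fold, and Tbx21, the factor T-bet, 3.71-fold. Of 16 genes of the ESAM-low subset, 13 fell and 1 rose (median log2 -2.15). Most called marker genes of both subsets were therefore on the cDC2 side, and the ESAM-high riser was Rbpj. Most called ESAM-low genes, and Esam, Cd4, Dtx1 and Clec4a4, are also on the cDC2 identity list. These counts are therefore not separate from those of that list.

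The plot of gene groups gives the share of each list that rose or fell beside all genes tested, of which 18.9% rose and 15.9% fell. The counts given for each list, above and below, are to be read beside these shares. C-type lectin receptors divided the cell types, with 20 of 32 lower and 8 higher in cDC1. Clec7a, the β-glucan receptor Dectin-1, had 572 and 623 in Flt3L KO cDC1, against 3399 and 3770 in Flt3L KO cDC2 (6.0-fold lower). Clec4a2 was 8.54-fold lower, against a dim cDC1 signal (20.6 and 19.9) under the lower quartile of its arrays. On the other side stood Clec9a, and Ly75, the uptake receptor DEC-205, whose mean was 736 in cDC1 and 195 in cDC2. Of 9 Fc receptor genes, 7 fell and 1 rose. Fcer1g, the signalling γ chain, had 473 and 418 in cDC1, against 2758 and 2581 in cDC2 (6.0-fold lower), and Fcgr3, the activating receptor for IgG, fell 4.09-fold. The riser was Fcrla, an intracellular Fc receptor-like gene best known from B cells, at 2.85-fold.

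**Figure D3:**
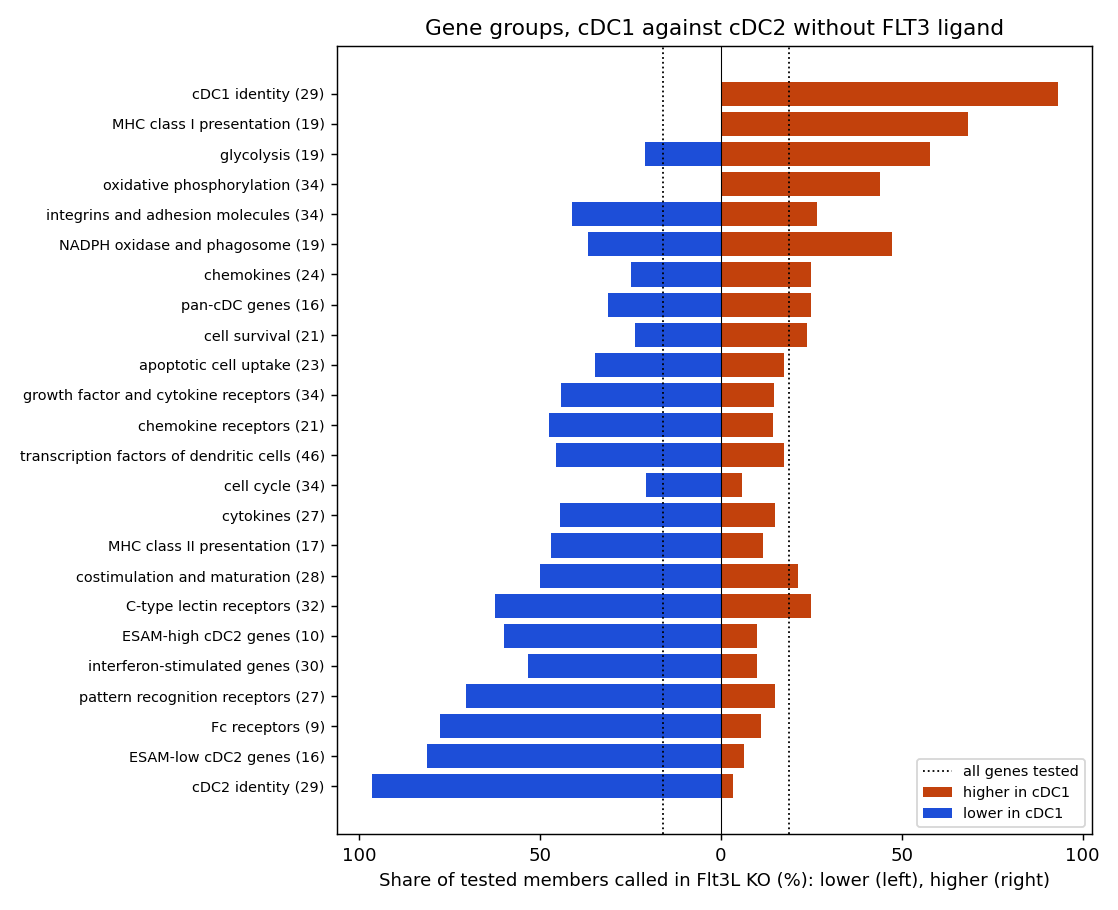
Share of the tested members of each gene list called in Flt3L KO, with members higher in cDC1 to the right (orange) and lower to the left (blue). The number tested is in parentheses, and dotted lines mark the 18.9% higher and 15.9% lower among all genes tested. The cDC1 identity, MHC class I and glycolysis lists extend furthest to the right, and the cDC2 identity, ESAM-low and Fc receptor lists furthest to the left.

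Nucleic acid and microbial sensors were mostly on the cDC2 side. Of 27 tested pattern recognition receptor and adaptor genes, 19 fell and 4 rose (median log2 -0.94). The risers were Tlr3, Tlr12, which senses profilin, the trafficking chaperone gene Unc93b1 and the adaptor Myd88. Tlr3 had 698 and 683 in Flt3L KO cDC1, against 44.5 and 42.1 in Flt3L KO cDC2. Tlr1, a partner of TLR2, had 57.1 and 55.5 in cDC1, against 722 and 694 in cDC2 (12.6-fold lower). Tlr8, another sensor of RNA, was 5.44-fold lower, and its cDC1 signal (15.6 and 20.5) was likewise under the lower quartile. Ddx58, the cytosolic RNA sensor RIG-I, had 50.2 and 43.1 in cDC1, against 560 and 422 in cDC2 (10.5-fold lower, adjusted p = 1.74e-08).

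Of 30 interferon-stimulated genes, 16 fell and 3 rose (median log2 -0.92). Ifi27 had 292 and 272 in Flt3L KO cDC1, against 1508 and 1434 in Flt3L KO cDC2 (5.22-fold lower). Oas2, an enzyme that activates RNase L, was 5.24-fold lower, with 60.5 and 54.2 in cDC1 against 368 and 244 in cDC2. The risers were Mx1, Bst2 and Trim30a, none of them past 2-fold. Irf7, the factor that amplifies the interferon response, had 940 and 636 in cDC1 and 961 and 663 in cDC2 and did not pass. The summed intensity of the list was 7415 to 8857 in Flt3L KO cDC1 and 10202 to 12629 in Flt3L KO cDC2. It was 6956 to 7072 in Flt3 KO cDC1, 9073 to 9226 in Flt3 KO cDC2, 7010 to 7217 in WT cDC1 and 9856 to 10705 in WT cDC2. The arrays labelled replicate 1 were the higher ones in both Flt3L KO cell types, for Irf7 and for most of the called genes.

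Antigen presentation genes differed by pathway. Of 19 MHC class I presentation genes, 13 rose (median log2 0.57) and the other 6 did not pass. Tap2, one chain of the transporter that feeds peptides to MHC class I, had 1215 and 1284 in Flt3L KO cDC1, against 592 and 565 in Flt3L KO cDC2 (2.16-fold, adjusted p = 9.58e-08). Tap1, the other chain, rose 1.82-fold, Psmb8, an immunoproteasome subunit, 1.66-fold, and Tapbpl, a peptide editor, 2.48-fold. B2m, the light chain, had means of 6110 in cDC1 and 6898 in cDC2 and did not pass (adjusted p = 0.0879). Of 17 MHC class II presentation genes, 8 fell and 2 rose. The fallers included Lgmn, an endosomal protease, with 500 and 572 in cDC1 against 2124 and 2066 in cDC2 (3.92-fold), the MHC class II β chain gene H2-Eb2 (5.10-fold), and the cathepsins Ctsd (2.42-fold) and Ctsz (1.63-fold).

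Genes of the NADPH oxidase and phagosome went both ways, with 9 of 19 higher and 7 lower. Rab7b, Rab32 (4.23-fold) and Rab43 (1.91-fold), GTPases of vesicle traffic, rose, as did Wdfy4, which cDC1 need for cross-presentation, with 7561 and 7019 in Flt3L KO cDC1 against 3948 and 4041 in Flt3L KO cDC2. The catalytic oxidase subunit gene Cybb was among the fallers. Of 23 genes of apoptotic cell uptake, 4 rose and 8 fell (52.2% called, beside 34.8% of all genes tested). Cd36, a scavenger receptor for dead cells and lipids, had 712 and 808 in cDC1, against 144 and 124 in cDC2 (5.68-fold). Lrp1, a receptor of uptake bound by calreticulin, was 5.23-fold lower in cDC1.

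Chemokine receptors gave 3 rises and 10 falls among 21 genes (61.9% called, beside 34.8% of all genes tested). Beside Xcr1, the risers were Cxcr3, a receptor for CXCL9 and CXCL10, with 471 and 479 in Flt3L KO cDC1 against 87.9 and 75.6 in Flt3L KO cDC2 (5.82-fold), and Ccr9, the receptor for CCL25 (4.61-fold). Gpr183, the oxysterol receptor that places cDC2 in the spleen, fell 3.37-fold. Chemokine genes were even, with 6 of 24 higher and 6 lower. Cxcl9 had 2210 and 2138 in cDC1, against 306 and 216 in cDC2 (8.47-fold higher), and Ccl3 had 519 and 714 in cDC1, against 2569 and 3308 in cDC2 (4.79-fold lower). Of 27 cytokine genes, 4 rose and 12 fell. Il12b, the p40 chain of IL-12 and IL-23, had 2947 and 3202 in cDC1, against 629 and 680 in cDC2 (4.70-fold higher), and Vegfa, the vascular growth factor, was 10.1-fold lower.

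Costimulation and maturation genes fell more often than they rose, with 14 of 28 lower and 6 higher. Cd274, the inhibitory ligand PD-L1, had 390 and 389 in Flt3L KO cDC1, against 1123 and 1278 in Flt3L KO cDC2 (3.08-fold lower), and Pdcd1lg2, the ligand PD-L2, was 2.66-fold lower. Serpinb6b, a protease inhibitor, rose 2.29-fold. Cd86 had means of 4174 in cDC1 and 4854 in cDC2 and Cd40 had 508 in cDC1 and 459 in cDC2, and neither passed. Of 34 integrins and adhesion molecules, 9 rose and 14 fell, with Itgae and Cadm1 at one end and Adgre4, Adgre1 and Itgam at the other.

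Genes of energy metabolism leaned to cDC1. In glycolysis, 11 of 19 rose (median log2 0.37), such as Pgam1, phosphoglycerate mutase, with 1813 and 1785 in Flt3L KO cDC1 against 855 and 795 in Flt3L KO cDC2 (2.18-fold). The 4 that fell were the glucose transporters Slc2a3 (4.71-fold) and Slc2a1 (3.21-fold), the lactate exporter Slc16a3 (4.11-fold) and Ldhb, a lactate dehydrogenase chain, with 34.7 and 40.5 in cDC1 against 50.8 and 47.7 in cDC2. In oxidative phosphorylation, 15 of 34 rose by small amounts, at most 1.38-fold for Ndufa9, a complex I subunit, and the other 19 did not pass (median log2 0.18). Of 34 cell cycle genes, 2 rose and 7 fell, and 25 did not pass. The share called was 26.5%, below the 34.8% of all genes tested. Ccnd2, cyclin D2, had 317 and 308 in cDC1, against 761 and 687 in cDC2 (2.31-fold lower), and Mki67, a proliferation marker, had means of 576 in cDC1 and 744 in cDC2 (adjusted p = 0.0382). Of 21 survival genes, 5 rose and 5 fell (47.6% called). Bcl2l14, of the BCL2 family, was 4.24-fold higher and Pmaip1, the pro-apoptotic NOXA, 1.75-fold lower.

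Markers of other spleen cells were read on the same arrays. T cell genes gave 1 fall of 7 tested (Cd5, 1.29-fold), and of 4 NK cell genes tested none passed in limma, with 1 at an unadjusted p under 0.05. Among 8 B cell genes Ms4a1 and Fcrla rose, and Cd22 (3.28-fold), Blk (2.82-fold) and Cd79b fell. Cd22 had 157 and 175 in Flt3L KO cDC1, against 598 and 497 in Flt3L KO cDC2. Cr2, Ebf1 and Cd79a were too dim to be tested, with means of 17.9 in Flt3L KO cDC1 and 14.3 in Flt3L KO cDC2 for Cd79a. The plasmacytoid dendritic cell list gave 3 rises and 4 falls of 10, the monocyte list 1 rise and 4 falls of 8, the neutrophil list 1 fall of 5, the erythroid and platelet list 1 rise of 4 and the plasma cell list 2 rises and 3 falls of 7. Of 3 Y-linked genes tested, 2 fell, Uty 1.70-fold and Eif2s3y 1.47-fold, and the sex of the mice behind each array is not stated.

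Of 15 macrophage genes tested, 9 fell and the other 6 did not pass (median log2 -0.40). The share called was 60%, beside 34.8% of all genes tested. It was 62.5% in the B cell and monocyte lists, 70% in the plasmacytoid dendritic cell list and 71.4% in the plasma cell list. The T cell, NK cell, neutrophil, and erythroid and platelet lists lay between 0% and 25%. The summed intensity of the macrophage genes was 1129 to 1212 in Flt3L KO cDC1 and 3199 to 3650 in Flt3L KO cDC2. It was 1276 to 1442 in Flt3 KO cDC1, 2512 to 2525 in Flt3 KO cDC2, 1295 on both arrays of WT cDC1 and 2283 to 2310 in WT cDC2, so the highest sums were those of the 2 Flt3L KO cDC2 arrays. Adgre1 went the other way, with means of 609 in Flt3L KO cDC2, 823 in Flt3 KO cDC2 and 969 in WT cDC2. It was called lower in Flt3L KO cDC2 than in WT cDC2 (log2 -0.67, adjusted p = 0.00479). Of the whole list, 4 genes were called below the WT difference and 0 above it. The fallers were Adgre1, C1qa, C1qb, C1qc, Axl, Spic, Mertk, Mrc1 and Fcgr1. Among markers of red pulp macrophages, Spic, a transcription factor gene, had 63.6 and 80.3 in Flt3L KO cDC1, against 195 and 311 in Flt3L KO cDC2. Vcam1, with means of 199 in both Flt3L KO cell types, did not pass between them, but was 2.27-fold higher in Flt3L KO cDC2 than in WT cDC2. Of the other markers of red pulp and marginal zone macrophages, Cd163 had means of 27.4 in Flt3L KO cDC1 and 28.7 in Flt3L KO cDC2, Marco 53.3 in cDC1 and 53.1 in cDC2, and Timd4 132 in cDC1 and 144 in cDC2, and these 3 did not pass. Cd5l (23.7 in cDC1 and 26.1 in cDC2) and Slc40a1 (25.1 in cDC1 and 38.5 in cDC2, against 29.3 in WT cDC1 and 19.2 in WT cDC2) were too dim on average to be tested. What part cells of this type have in the cDC2 values was not tested.

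Whether the difference between the cell types was itself other than in mice with the ligand was tested as the Flt3L KO difference minus the WT difference. Of 14953 genes, 74 were called (0.495%), 37 above the WT difference (0.247%) and 37 below it (0.247%), and 2220 had an unadjusted p under 0.05. This count moved with single arrays. It was 64 without WT cDC1 replicate 1 and 484 without WT cDC1 replicate 2, the 2 arrays that stood apart, 20 without WT cDC2 replicate 1, 25 without WT cDC2 replicate 2, 25 without Flt3L KO cDC1 replicate 1 and 34 without Flt3L KO cDC2 replicate 1. The absolute difference was smaller in Flt3L KO than in WT for 47 of the 74 genes and larger for 27. For 65 of the 74, the Flt3 KO difference lay between those of Flt3L KO and WT. The 74 were chosen for a wide gap between those 2 differences, and the share over all genes was not computed. This count therefore does not show that Flt3 KO is intermediate. The genes named next by size are the 8 largest in each direction. Of these 16, 7 kept the call in every alternative that tested them: Clec4e, C1qa, C1qb, Cd36, Abca9, Cd101 and Adam11. Clec4e and Abca9 were tested in 14 alternatives and the others in 15.

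The largest negative values came from genes that were higher in Flt3L KO cDC2 than in WT cDC2. C1qa, a chain of the complement component C1q, had 82.4 and 88.0 in Flt3L KO cDC1, against 790 and 569 in Flt3L KO cDC2. It had 69.4 and 69.7 in Flt3 KO cDC1, against 363 and 280 in Flt3 KO cDC2, and 84.0 and 78.8 in WT cDC1, against 135 and 157 in WT cDC2. The cDC1 values overlapped between Flt3L KO and WT, while the lowest Flt3L KO cDC2 array was well above the highest WT cDC2 array. The Flt3L KO difference was log2 -2.98 and the WT difference -0.84, which differ by -2.14 (SE 0.21, adjusted p = 0.00136). C1qb, another C1q chain, gave -2.04 (adjusted p = 0.00626), with means of 65.7 in Flt3L KO cDC1 and 478 in Flt3L KO cDC2, against 68.3 in WT cDC1 and 119 in WT cDC2. Both are on the macrophage list, whose sums are given above.

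Clec4e, the receptor Mincle for mycobacterial and damage-associated lipids, gave the largest value, -2.34 (SE 0.29, adjusted p = 0.00626). It had 19.5 and 16.3 in Flt3L KO cDC1, against 258 and 141 in Flt3L KO cDC2, and means of 19.0 in WT cDC1 and 40.0 in WT cDC2. Its cDC1 signal was under the lower quartile in every genotype, so the size of both differences rests on dim values. Cd300e, an activating receptor of monocytes, gave -1.74, Pparg, the lipid-sensing nuclear receptor, -1.54 and Smpdl3b, a lipid-modifying enzyme, -1.52. In each of these 4 genes the 2 Flt3L KO cDC2 arrays were far apart, for instance 431 and 210 for Cd300e, with replicate 1 the higher, and both were above both WT cDC2 arrays. Cd300e lost its call in some alternatives, as did Pparg and Smpdl3b. The next 3 genes were picked after their values were seen, and each was also higher in Flt3L KO cDC2 than in WT cDC2. Apoe, the lipid carrier, had means of 310 in Flt3L KO cDC1 and 716 in Flt3L KO cDC2, against 433 in WT cDC1 and 419 in WT cDC2 (-1.25, adjusted p = 0.00693). Lyz2, lysozyme, had 992 in Flt3L KO cDC1 and 1218 in Flt3L KO cDC2, against 1249 in WT cDC1 and 726 in WT cDC2, and so was lower in cDC1 in Flt3L KO and higher in cDC1 in WT (-1.08, adjusted p = 0.00621). In Flt3 KO its means were 1169 in cDC1 and 1213 in cDC2, which did not pass (adjusted p = 0.727). The Flt3L KO difference of Lyz2 was not called against that in Flt3 KO (-0.25, adjusted p = 0.583). Vcam1, an adhesion molecule of the macrophage list, gave -0.88.

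For Cd36 both cell types moved. It had 712 and 808 in Flt3L KO cDC1, against 144 and 124 in Flt3L KO cDC2, and 1063 and 1112 in WT cDC1, against 51.1 and 57.7 in WT cDC2. The difference was log2 2.51 in Flt3L KO and 4.32 in WT (-1.82, SE 0.15, adjusted p = 0.000317). Cd36 is a member of the cDC1 identity list, and with P2ry14 (-1.13, adjusted p = 0.00693) it was called against WT among the 29 tested genes of that list. P2ry14 had means of 1180 in Flt3L KO cDC1 and 74.0 in Flt3L KO cDC2, against 1275 in WT cDC1 and 36.3 in WT cDC2. Clec4b2, a C-type lectin, moved in cDC1, with 63.1 and 104 in Flt3L KO cDC1 against 243 and 320 in WT cDC1 (-1.55, adjusted p = 0.0332). The median of the cDC1 identity list was log2 2.96 in Flt3L KO, 3.14 in Flt3 KO and 3.38 in WT.

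**Figure D4:**
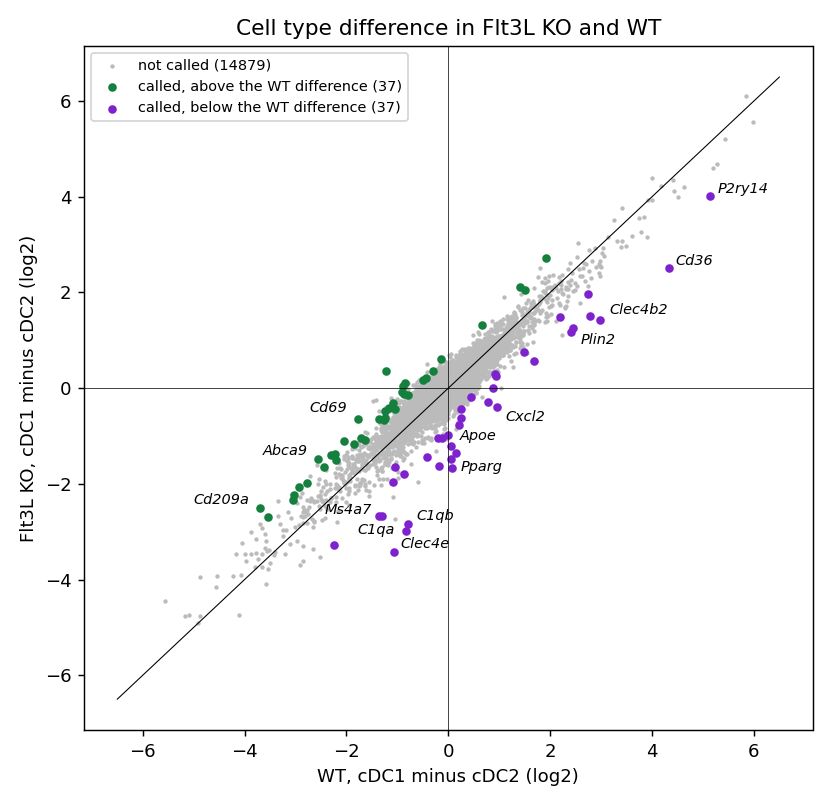
Log2 difference cDC1 minus cDC2 in Flt3L KO (vertical axis) against that in WT (horizontal axis), 1 point per gene, with the line of equal difference. The 37 genes called below the WT difference (purple) include Cd36, C1qa and Clec4e, and the 37 called above it (green) include Cd209a, Cd69 and Abca9.

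Among the 37 genes above the WT difference, 26 were lower in cDC1 than in cDC2 in Flt3L KO. Cd209a, the C-type lectin DC-SIGN of cDC2, had 164 and 115 in Flt3L KO cDC1, against 759 and 799 in Flt3L KO cDC2, and 124 and 113 in WT cDC1, against 1587 and 1491 in WT cDC2 (1.19, SE 0.18, adjusted p = 0.0133). Its cDC2 level was 1.98-fold lower in Flt3L KO than in WT, and it stayed at 1562 and 1517 in Flt3 KO cDC2. In Flt3 KO cDC1 it had 225.5 and 222.7. The Cd209a difference was thus log2 -2.78 in Flt3 KO, beside -2.50 in Flt3L KO and -3.70 in WT. Abca9, a lipid transporter gene, had means of 28.6 in Flt3L KO cDC1 and 79.8 in Flt3L KO cDC2, against 25.1 in WT cDC1 and 147 in WT cDC2 (1.07, adjusted p = 0.00626). Cd101, an inhibitory surface protein, had 37.5 in Flt3L KO cDC1 and 80.2 in Flt3L KO cDC2, against 39.5 in WT cDC1 and 162 in WT cDC2 (0.94, adjusted p = 0.00693). In these 3 genes the larger move was in cDC2.

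In Cd69 and Adam11 the larger move between Flt3L KO and WT was in cDC1. Cd69, an activation marker that retains cells in tissue, had 198 and 176 in Flt3L KO cDC1, against 319 and 266 in Flt3L KO cDC2, and 82.3 and 112 in WT cDC1, against 320 and 340 in WT cDC2 (1.13, adjusted p = 0.0214). Adam11, a metalloprotease-like gene, had means of 167 in Flt3L KO cDC1 and 442 in Flt3L KO cDC2, against 68.8 in WT cDC1 and 339 in WT cDC2 (0.90, adjusted p = 0.00693). In Adam11 both cell types were called higher in Flt3L KO than in WT, by log2 1.28 in cDC1 (adjusted p = 1.57e-05) and 0.39 in cDC2 (adjusted p = 0.0379). Stat4, the factor downstream of IL-12, gave 0.86, Gpr141, a receptor gene next in name to Gpr141b, 0.84 and Cdon, a cell surface receptor, 0.84. For Gpr141 the move was about even, 0.43 in cDC1 and -0.41 in cDC2, and neither was called. These 3 and Cd69 and Cd209a lost the call in some alternatives. Gpr141b itself was not called against WT (0.27, adjusted p = 0.429).

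**Figure D5:**
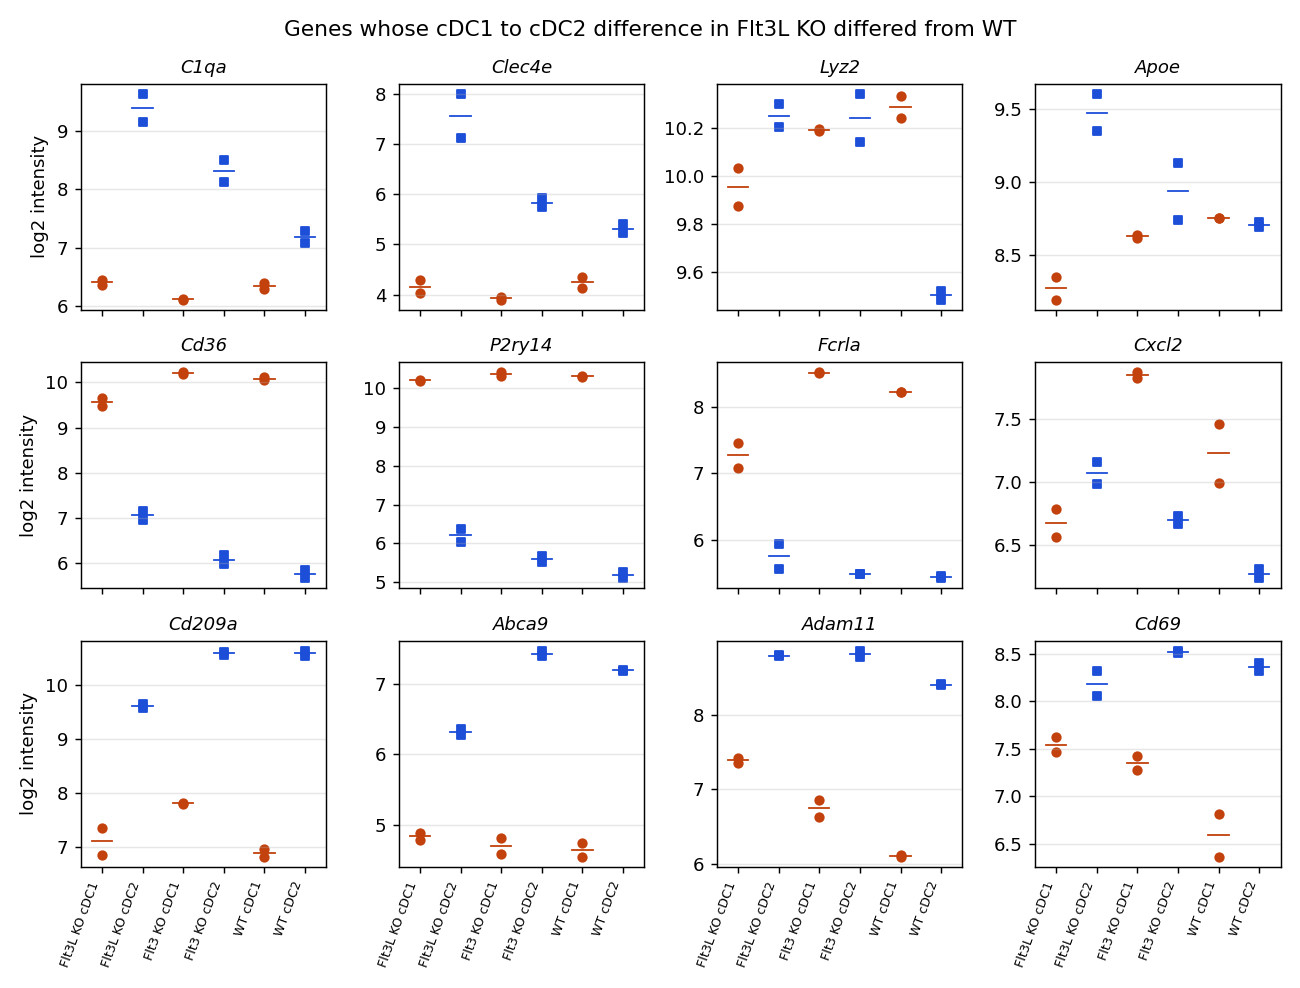
Intensity on a log2 scale of 12 genes on all 12 arrays, with cDC1 as orange circles, cDC2 as blue squares and a bar at each group mean, in the order Flt3L KO, Flt3 KO, WT. C1qa and Clec4e are highest on the 2 Flt3L KO cDC2 arrays, Cd36 differs in both cell types, and Cd209a and Abca9 are lower in Flt3L KO cDC2 than in the other cDC2 groups.

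Set against Flt3 KO instead, which shares the Flt3L KO arrays with the previous test, 17 genes were called (0.114%), 6 above the Flt3 KO difference (0.0401%) and 11 below it (0.0736%), with 1394 at an unadjusted p under 0.05. The count was 29 without Flt3L KO cDC2 replicate 2, and lay between 2 (without Flt3 KO cDC1 replicate 1) and 8 when any other of the arrays compared was left out. Cd36 gave -1.61 (SE 0.15, adjusted p = 0.00129), with 1194 and 1160 in Flt3 KO cDC1 against 72.9 and 63.3 in Flt3 KO cDC2. Abca9 gave 1.26 (adjusted p = 0.00363), with means of 26.1 in Flt3 KO cDC1 and 173 in Flt3 KO cDC2. Cd36 was called in all 15 alternatives, and Abca9 in the 14 that tested it. Cxcl2, a neutrophil-attracting chemokine, had 94.4 and 110 in Flt3L KO cDC1 and 126 and 143 in Flt3L KO cDC2, against 233 and 227 in Flt3 KO cDC1 and 102 and 106 in Flt3 KO cDC2 (-1.54, adjusted p = 0.00724), so the cell types changed places.

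The other genes named against Flt3 KO, Cxcl2 included, lost the call in at least 1 alternative. Both tests, against WT and against Flt3 KO, called 12 genes, among them Cxcl2, Fcrla, Adgrf5, Tbc1d30 and Smad7. Fcrla had 136 and 175 in Flt3L KO cDC1 against 365 and 362 in Flt3 KO cDC1, and gave -1.50 (adjusted p = 0.00724). Clec4b2 gave -1.82, Hmox1, heme oxygenase 1, -1.40, Adgrf5, an adhesion receptor whose cDC2 signal was under the lower quartile in every genotype, -1.15, Pde3b, a phosphodiesterase, -1.03 and Rcan1, a calcineurin inhibitor, -0.92. Cd101 gave 0.89, Hap1 0.77, Sspo 0.76, Tbc1d30 0.72 and Smad7, an inhibitor of TGF-β signalling, 0.71. C1qa gave -0.78 (adjusted p = 0.244), Clec4e -1.50 (adjusted p = 0.107) and Cd209a 0.28 (adjusted p = 0.683), so these 3, which were called against WT, did not pass against Flt3 KO. That does not show that the 2 knockouts act alike on them.

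How much of the cell type difference was kept was described on genes chosen in Flt3 KO. The Flt3 KO arrays enter neither the Flt3L KO nor the WT log2 difference. The calls use a variance shared by all groups, so the call counts below are not separate from the choice of genes. Of 420 genes called over 2-fold higher in Flt3 KO cDC1 than in Flt3 KO cDC2, 416 were called higher in cDC1 in Flt3L KO and 420 in WT. Their median log2 difference was 1.36 in Flt3L KO and 1.41 in WT, with a smaller difference in Flt3L KO for 63.3% and a slope through 0 of 0.92. Of 495 genes called over 2-fold lower, 494 were called lower in Flt3L KO and 495 in WT, with medians of -1.53 in Flt3L KO and -1.61 in WT, a smaller difference in Flt3L KO for 66.5% and a slope of 0.927. Without WT cDC1 replicate 1 these shares were 70.5% and 64.4% and the slopes 0.89 and 0.934. They were not computed without WT cDC1 replicate 2, the array whose removal moved the count against WT most. Of the 29 tested cDC2 identity genes, Cd209a and Lyz2 were called against WT, in opposite directions.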

How the data were processed

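RNA of sorted spleen cDC1 and cDC2 was hybridised to GeneChip gene arrays, 2 per group in 6 groups. The values are linear intensities per probe set as the authors deposited them; their distributions were nearly the same on all arrays, and the summarisation and normalization are not given in the sources used here. Per the labels' protocols, RNA was labelled with a whole-transcript kit. Of 30177 probe sets, 21789 carried 1 gene symbol in the platform annotation, 1621 carried several and the rest none. The probe set with the highest mean stood for each of 19938 genes, and the dimmest (a share of 0.25 by mean) were left out, which kept 14953 (lowest mean log2 intensity 4.78). Log2 intensities were fitted with limma 3.58.1 in R 4.3.3, with 1 mean per group over all 12 arrays (6 residual degrees of freedom), eBayes and Benjamini-Hochberg adjustment, after a check on simulated data. The contrasts were cDC1 minus cDC2 in Flt3L KO, and that difference minus the one in WT or in Flt3 KO. Standard errors had a median of 0.0937 for the first contrast, and with 2 arrays per group their number limits precision. Groups came from the sample titles.

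The gene lists and the groups described were chosen with earlier results of these data known. The naming rule took the 12 largest rises and falls without overlap in Flt3L KO, the 8 largest called differences in each direction against WT and against Flt3 KO (predicted genes, small RNAs and receptor segments left out), a set of identity genes, and up to 4 members of each list with the smallest p. Other list members were named after their values were seen. Promoters came from RefSeq (GRCm38.p6), which held one for 11808 tested genes. The alternatives were quantile normalization, 2 other filters on dim genes, averaging all probe sets of a gene, a variance prior that was trended and robust, a fit to the compared arrays alone, a replicate block, and each compared array left out in turn.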

Additional observations from a re-analysis of the deposited data

Results flagged for a closer look

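In the genes below, the cDC1 to cDC2 difference in Flt3L KO departed from that in another genotype by the test of the difference itself (limma, adjusted p under 0.05 over 14953 genes, 2 arrays per group). Against WT, the log2 departures above the WT difference were 1.19 for Cd209a, 1.13 for Cd69, 1.07 for Abca9, 0.94 for Cd101, 0.90 for Adam11, 0.86 for Stat4, 0.84 for Gpr141 and 0.84 for Cdon. Those below it were -2.34 for Clec4e, -2.14 for C1qa, -2.04 for C1qb, -1.82 for Cd36, -1.74 for Cd300e, -1.55 for Clec4b2, -1.54 for Pparg and -1.52 for Smpdl3b.

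Against Flt3 KO, with the same Flt3L KO arrays, the departures above were 1.26 for Abca9, 0.89 for Cd101, 0.77 for Hap1, 0.76 for Sspo, 0.72 for Tbc1d30 and 0.71 for Smad7. Those below were -1.82 for Clec4b2, -1.61 for Cd36, -1.54 for Cxcl2, -1.50 for Fcrla, -1.40 for Hmox1, -1.15 for Adgrf5, -1.03 for Pde3b and -0.92 for Rcan1.

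Signal also appeared in probe sets that no comparison above uses. Of 5315 probe sets without a single gene symbol that were bright enough to be tested, 859 (16.2%) were called between Flt3L KO cDC1 and Flt3L KO cDC2, 442 higher and 417 lower in cDC1, and 113 were called over 2-fold.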

How the results depend on the processing

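The count between Flt3L KO cDC1 and Flt3L KO cDC2 was 4990 to 5404 under the alternatives that keep all arrays, and 4019 to 4423 with 1 of the 4 arrays left out. Over 2-fold it was 882 to 912 with an array left out, and list members called were 303 to 311, against 340. The counts against the other genotypes depended on the processing. Against WT, 74 became 118 with a stricter filter on dim genes, 208 with a trended and robust prior and 37 with only the arrays compared, and ran from 20 to 484 with an array left out. Against Flt3 KO, 17 became 5 with quantile normalization, 7 with no filter, 42 with a trended and robust prior and 6 with only the arrays compared, and ran from 2 to 29 with an array left out. The cause was not tested. With a replicate block the counts were 5341, 895 over 2-fold, 68 against WT, 12 against Flt3 KO and 351 list members. Whether equal replicate numbers pair the cDC1 and cDC2 samples is not stated. The replicate differences of cDC1 and cDC2 correlated at 0.15 in Flt3L KO, 0.088 in Flt3 KO and 0.16 in WT. Of 1695 values of named genes in Flt3L KO, 1658 kept direction and call, 21 lost the call, 4 gained it and 12 changed sign. The changes of sign were in uncalled genes, Hmox1 (-0.03) and Camp (0) with quantile normalization, and some with 1 array left out. With each array left out in turn, Zbtb46 ran from -0.21 to 0.02, Thy1 from -0.32 to 0.06, Elane from -0.05 to 0.10, Hmox1 from -0.24 to 0.24, Camp from -0.11 to 0.04, Prf1 from -0.05 to 0.15 and Slc4a1 from -0.03 to 0.16. Of the values against WT, 185 of 237 kept the call, and of those against Flt3 KO, 104 of 208. Dim genes are limited by background, and 2 arrays per group limit all comparisons.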
